A study of Mus musculus with 24 samples.

Results

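Skeletal muscle transcripts were present in 6 of 24 RNA-seq libraries made from mouse interscapular brown adipose tissue, a fat depot of the upper back that makes heat. The 6 libraries were chosen by measured values: they are those in which the mean log2 CPM (counts scaled to a common library total) of Acta1, Ckm, Myh1, Actn3, Atp2a1 and Ttn lies above 1. They are compared below with the other 18 libraries, with genotype and treatment in the model. The libraries come from mice aged 6 to 8 months in 4 groups of 6 (3 males, 3 females): WT mice (C57Bl/6J) given saline, WT mice given DCZ (deschloroclozapine, a ligand of designer receptors), Th-Cre (labelled B6.129X1- Tht1(cre)Te/Kieg) given saline, and Th-Cre given DCZ. The study's title names the activation of the sympathetic neurons that reach this depot, and tissue was taken 30 minutes after the stimulus. In Th-Cre mice, regulatory sequence of tyrosine hydroxylase drives Cre recombinase, so that Cre marks cells that make catecholamines, such as sympathetic neurons. Which designer receptor was used, and how it was delivered, the labels do not say. The muscle libraries are named by group and mouse: Th-Cre saline DN2094, DN2086 and DN2087, Th-Cre DCZ DN2075 and DN2091, and WT saline 12. No WT DCZ library is among them.

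Brown adipocytes burn lipid for heat through Ucp1, the proton channel of their inner mitochondrial membrane. They descend from a progenitor that also gives rise to skeletal muscle, and share with muscle a dense set of mitochondria and some genes of oxidative metabolism. The interscapular depot lies directly on the muscles of the back. Contractile fibers differ in the myosin heavy chain they make: Myh4 marks the fast, glycolytic type IIb fiber, Myh1 the fast type IIx fiber, Myh2 the fast oxidative type IIa fiber, and Myh7 the slow type I fiber.

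The marker mean was 6.85 in Th-Cre saline DN2094, 5.64 in Th-Cre DCZ DN2075, 5.28 in Th-Cre saline DN2086, 4.59 in WT saline 12, 2.83 in Th-Cre saline DN2087 and 1.95 in Th-Cre DCZ DN2091, on the log2 CPM scale. In the other 18 libraries it ran from -2.69 to 0.19 with a median of -1.99. The muscle libraries form a graded series, not a tight group, and the 2 lowest of them are both from males and the 4 highest all from females. Just outside the threshold lay WT DCZ 1 at 0.19, and just inside it Th-Cre DCZ DN2091. The mean over 13 genes of the fast fiber program chose the same 6 of 6 libraries. Muscle transcripts were a small part of every library: the 16 genes in the marker set and the fast program together took 0.00841 to 0.165% of all counts in the muscle libraries, and 0.000122 to 0.0013% in the others. These values chose the libraries and are given as a description.

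**Figure D1:**
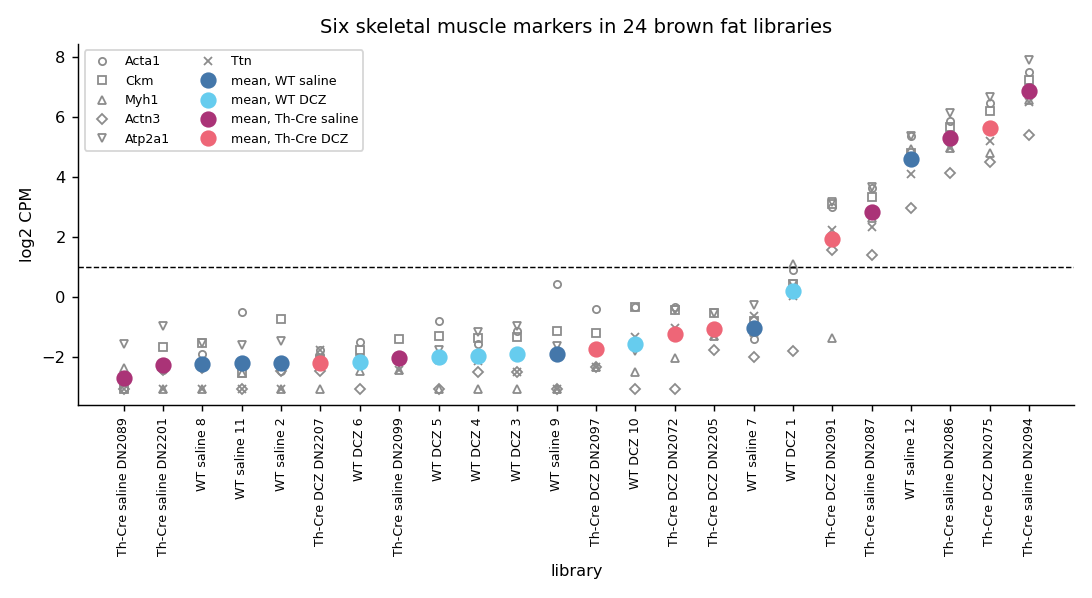
Log2 CPM of the 6 marker genes (grey symbols) and their mean (coloured by group) in each of the 24 libraries, ordered by the mean; the dashed line is the threshold of 1. The 6 muscle libraries lie between 1.95 and 6.85 and the other 18 at or below 0.19.

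Depth and mapping overlapped between the sets. Total estimated counts ran from 11.9 to 22.9 M in the muscle libraries and from 12.7 to 20.2 M in the others, and 85.4 to 88.7% against 84.2 to 88.3% of reads pseudoaligned. Exact two-sided permutation within group (1800 arrangements, smallest possible p 0.000556) gave p = 0.171 for the total (means of 17.3 M ± 3.92, SD, n = 6, and 16.3 M ± 2.03, n = 18) and p = 0.174 for the pseudoaligned percent, both 0.174 after adjustment over these 2 measures. Mitochondrially encoded genes took 31.4 to 40.6% and 32.2 to 42.3% of counts. Fisher's exact test, two-sided, found no label past the threshold: 5 of 12 Th-Cre and 1 of 12 WT libraries were muscle libraries (p = 0.155, adjusted over 3 labels 0.465), as were 2 of 12 DCZ and 4 of 12 saline libraries (p = 0.64) and 4 of 12 female and 2 of 12 male libraries (p = 0.64). With so few libraries a moderate imbalance would not be detectable.

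Genes of the skeletal muscle lists made up most of the genes called higher in the muscle libraries. In an edgeR quasi-likelihood model with 4 group means and a muscle term, 36 of 13129 tested genes were higher in the muscle libraries at a Benjamini-Hochberg adjusted p under 0.05, 0.274% of those tested, and 0 were lower, also with DESeq2 and with limma-voom. At an unadjusted p under 0.05 there were 212 higher and 176 lower genes. The median log2 fold change over all tested genes was 0.0003. In 24 genes, 0.183% of those tested, all 6 muscle libraries lay above all 18 others. Of the 36 higher genes, 27 belong to lists of skeletal muscle genes and 9 do not. Since muscle transcripts chose the libraries, the counts and levels of the muscle lists are a description, and no p is given for them.

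**Figure D2:**
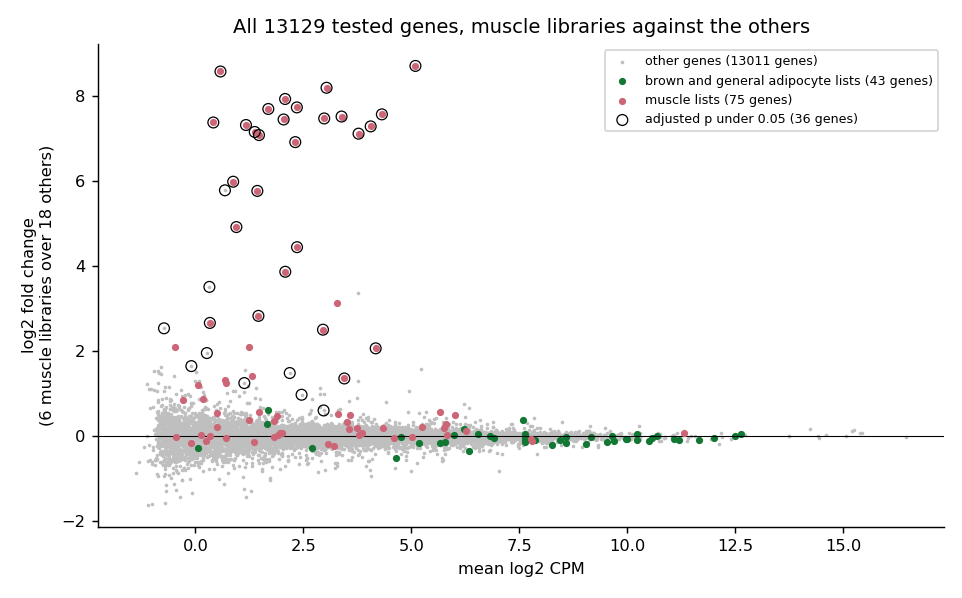
Log2 fold change of the muscle libraries over the others (y) against mean log2 CPM (x) for each of 13129 tested genes. Genes of the muscle lists are red, 43 genes of the brown and general adipocyte lists green, and the 36 genes past the adjusted threshold are circled, all of them above 0.

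Filament proteins of the sarcomere, the contractile unit, were among the genes with the largest differences. Myh4 stood at 27.2 CPM in Th-Cre DCZ DN2091, 24.3 in Th-Cre saline DN2087, 46 in WT saline 12, 148 in Th-Cre saline DN2086, 160 in Th-Cre DCZ DN2075 and 407 in Th-Cre saline DN2094. In the other 18 libraries Myh4 ran from 0 to 0.957 CPM with a median of 0.0279, so the sets did not overlap, and its fitted log2 fold change was 8.71 ± 0.64 (SE). Acta1, the actin of the skeletal thin filament, followed the same order of libraries from DN2087 upward, with 7.77, 12.1, 41.4, 58, 87.8 and 182 CPM in DN2091, DN2087, WT saline 12, DN2086, DN2075 and DN2094. In the others it ran from 0 to 1.74 CPM with a median of 0.296. In the thick filament list 7 of 10 tested genes passed the threshold, with a median log2 fold change of 6 over the 10, and in the thin filament list 6 of 10, with a median of 2.96. The troponins of fast fibers, Tnni2 (log2 fold change 7.73), Tnnt3 (7.52) and Tnnc2 (6.91), lay above all other libraries in all 6 muscle libraries. Myl1, the fast essential light chain, differed from this pattern: it had 65.6 to 93.6 CPM in the muscle libraries and 44 to 85.2 CPM in the others, and did not pass. It was called higher with no filter on low counts (log2 fold change 0.48), with sex added, with additive terms and with DESeq2.

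Z disc genes anchor the filaments, and 7 of the 14 tested genes of that list passed, with a median log2 fold change of 2.74. Ttn, the giant spring protein titin, stood at 4.55, 4.91, 16.9, 31, 36.5 and 89.5 CPM in DN2091, DN2087, WT saline 12, DN2086, DN2075 and DN2094, against 0 to 0.901 CPM in the others. Xirp2, an actin-binding repeat protein, had 553 reads over the 6 muscle libraries and 2 over the other 18. Des, desmin, had 48.5 to 77.3 CPM in the muscle libraries and 43.3 to 68.8 CPM in the others.

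The machinery of calcium release showed the same graded series. Atp2a1, the calcium pump of fast fibers, stood at 8.89, 12.5, 41, 69.5, 102 and 235 CPM in DN2091, DN2087, WT saline 12, DN2086, DN2075 and DN2094, against 0.117 to 1.24 CPM in the others. Pvalb, the calcium buffer parvalbumin of fast fibers, had 3.75 to 40.4 CPM in the muscle libraries and at most 0.323 CPM elsewhere. Ryr1, the calcium release channel, had 1.47 to 28 CPM and at most 0.278 CPM. In this list 4 of 11 tested genes passed, with a median of 1.21. Atp2a2, the calcium pump that brown fat, heart and slow fibers also make, had 170 to 238 CPM in the muscle libraries and 175 to 282 CPM in the others.

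Of the genes of muscle energy supply, 3 of 10 tested passed (Ckm, Pygm and Eno3), with a median of 0.19. Ckm, the cytosolic creatine kinase, stood at 8.39, 9.87, 27.6, 50.3, 72.5 and 151 CPM in DN2091, DN2087, WT saline 12, DN2086, DN2075 and DN2094, and at 0 to 1.24 CPM in the others. Pygm, muscle glycogen phosphorylase, and Eno3, the muscle enolase, differed less, with log2 fold changes of 2.5 ± 0.333 (SE) and 1.35 ± 0.228, over levels of 2.14 to 5.71 CPM and 5.78 to 12.9 CPM in the other libraries. Aldoa, aldolase A, which brown fat makes at a high level, did not pass (0.07 on the log2 scale), nor did Pfkm or Gys1.

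The filter on low counts left 75 of the 130 genes on the muscle lists tested; the other 55 fell below it. Of those 55, 4 had no read in any library, and 7 had reads in the muscle libraries and none in the others. Csrp3, a Z disc LIM protein, had 71 reads in the muscle libraries and Trim54, a ubiquitin ligase of the sarcomere, 76, both with 0 elsewhere. Myot, myotilin, had 517 reads against 2, Trdn, triadin, 299 against 5, and Cacna1s, the voltage sensor of the calcium channel, 350 against 14. All 6 muscle libraries lay above the other 18 in 21 of the tested and 9 of the untested genes.

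Regulators of muscle identity had few reads or none, or did not pass. Pax7, the marker of muscle stem cells, had 0 reads in all 24 libraries, as had Myf5, which acts in muscle precursors. Myod1, the master regulator of the lineage, had 2 reads over the 6 muscle libraries and Myog, which acts in differentiation, 1. Myf6, the member of that family kept in adult fibers, had 28 reads, and the secreted growth inhibitor Mstn 11, all of them in muscle libraries. A count of 0 allows up to 3 reads per library, so lower levels were not detectable at this depth. Of the transcription factor list 0 of 5 tested genes passed (median 0.08), of the neuromuscular junction list 0 of 3 (0.03), of the myokines, factors secreted by muscle, 0 of 4 (0.0008), and of the genes of denervated or injured muscle 0 of 6 (0.04). The embryonic and neonatal myosins Myh3 and Myh8 stayed at or below 0.136 and 0.535 CPM in the muscle libraries.

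Fast myosins took the larger part of the myosin reads in all 6 libraries, and the mix differed between libraries. Of the reads on Myh4, Myh1, Myh2 and Myh7, Myh4 took 98.5% in Th-Cre DCZ DN2091 (95% Wilson interval 97.3 to 99.2, 618 reads) and 77.4% in Th-Cre saline DN2087 (73.8 to 80.6, 570 reads). It took 48.2% in WT saline 12 (45.8 to 50.6, 1668 reads), 78.9% in Th-Cre saline DN2086 (77.1 to 80.6, 2110 reads), 75.9% in Th-Cre DCZ DN2075 (74.3 to 77.3, 3105 reads) and 73.8% in Th-Cre saline DN2094 (73 to 74.7, 10622 reads). DN2091 was thus almost all type IIb myosin, and WT saline 12 was the library with the lowest Myh4 share. Myh1 took 0.971% of these reads in DN2091, 31.8% in WT saline 12, and 13.2 to 19.3% in the other 4. Myh2 took 0.324% in DN2091, 13.9% in WT saline 12 and 2.63 to 7.31% in the other 4. The reference transcripts are of like length (6016 to 6230 bases for the longest of each gene), and per length the Myh4 share of WT saline 12 was 48.5%. Intervals cover counting error only.

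**Figure D3:**
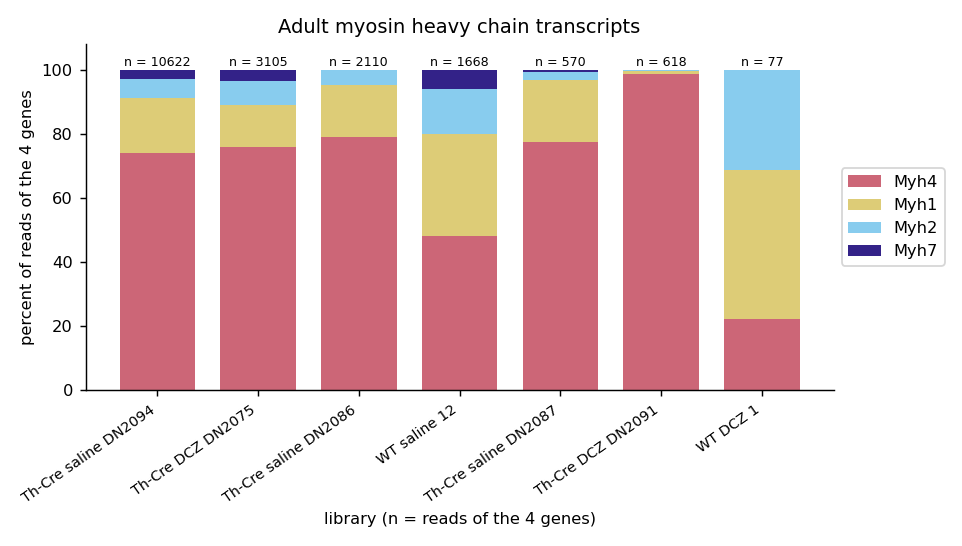
Stacked bars give the percent of the reads on Myh4, Myh1, Myh2 and Myh7 that each gene took, in the 6 muscle libraries and in WT DCZ 1, the library just outside the threshold. Myh4 takes 98.5% in Th-Cre DCZ DN2091 and 48.2% in WT saline 12.

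Slow fiber transcripts were a minor part and were unevenly spread. Myh7 stood at 16.4 CPM in Th-Cre saline DN2094, 7.55 in Th-Cre DCZ DN2075 and 5.84 in WT saline 12, but at 0.0891 in Th-Cre saline DN2086, 0.221 in DN2087 and 0.0447 in DN2091, against at most 0.117 CPM in the other 18 libraries. DN2086 is the clear contrast, since its Myh4 level (148 CPM) is near that of DN2075 (160 CPM). Slow Myh7, Myl2, Tnni1, Tnnt1 and Myoz2 were set against fast Myh4, Tnni2, Tnnt3, Actn3 and Pvalb, a choice made after their values were seen. Of the reads on these 10 genes, the slow ones took 9.78% in WT saline 12 (95% Wilson interval 8.54 to 11.2) and 0.535% in DN2086 (0.324 to 0.88). The share was 4.38% in DN2075, 4.27% in DN2094, 3.06% in DN2087 and 0.906% in DN2091. In DN2086 10 of the 15 slow reads were on Tnnt1, and in DN2091 5 of the 9. Tnnt1 had 0 to 6 reads in each of the other 18 libraries, and this background was not subtracted. Both of these shares therefore lie near the floor. In the list of the slow program 0 of 7 tested genes passed, with a median of 0.54, against 13 of 13 and a median of 7.52 in the fast program. These counts do not compare the programs, because the filter on low counts removed Myh7, Myl2, Tnni1, Tnnt1 and Myoz2, and all 5 were called higher when no filter was used. The 7 that were tested include genes that the other libraries also hold: Tpm3, a slow tropomyosin made in many tissues, had 46.9 to 75.8 CPM in the 18 other libraries.

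The order of the libraries was much alike across the 36 higher genes. Th-Cre saline DN2094 was the highest of the 6 for 35 of the 36 genes and WT saline 12 for the other 1, Cited2. Th-Cre DCZ DN2091 was the lowest for 22, Th-Cre saline DN2087 for 13 and WT saline 12 for 1. The 4 highest libraries each lay above all 18 others in 36 of 36 genes, DN2087 in 28 and DN2091 in 25. These 36 genes were called for being higher in the same libraries, so these counts are a description. Over all 13129 tested genes, all 6 muscle libraries lay above the other 18 in 24 (0.183%). WT DCZ 1, outside the set, was the highest of the other 18 for 18 of the 36 genes. Its 77 myosin reads were 46.8% Myh1, 31.2% Myh2 and 22.1% Myh4, with 0 on Myh7, which allows a share of up to 3.9%.

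Near-identical copies limit the myosin shares. Of all 31-base words in the reference transcripts, 57.1% of those of Myh1, 59.5% of Myh2, 69.6% of Myh4 and 62.9% of Myh7 occur in no other gene, and the estimated counts divide the reads that fall on shared words. Tnni2, Tnnt3, Mylpf and Pvalb share no such word with another gene. Myh2, Myh1, Myh4 and Myh8 lie in 1 cluster on chromosome 11 (GRCm38, GENCODE M21, 67171027 to 67308634, plus strand). Ckm (chromosome 7, 19404776 to 19422841), Acta1 (chromosome 8, 123891769 to 123894751) and Atp2a1 (chromosome 7, 126445858 to 126463108) each overlap a gene on the other strand. Of their own 31-base words 85.5% (Ckm), 95.9% (Acta1) and 79.7% (Atp2a1) occur in no other gene, so only reads on the remainder could be shared.

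The promoters of Ckm, Acta1 and Myh4 are shown because these genes, from energy supply, the thin filament and the thick filament, were among the genes with the largest differences. Each sequence is the 250 bases before the start given by RefSeq (GRCm38.p6), 5′ to 3′ on the gene's strand, at chr7:19410844-19411093 (plus), chr8:123894776-123895025 (minus) and chr11:67237562-67237811 (plus). The RefSeq starts differ from the gene starts of GENCODE M21. The Ckm window lies inside the GENCODE span of Ckm (19404776 to 19422841), and GENCODE starts Myh4 at 67238029. Capitals mark matches on either strand to the E box CANNTG, to TATAAA, to the CArG box (serum response factor) and to the MEF2 site. In Myh4 1 match to TATAAA overlaps that to the MEF2 site.
Ckm: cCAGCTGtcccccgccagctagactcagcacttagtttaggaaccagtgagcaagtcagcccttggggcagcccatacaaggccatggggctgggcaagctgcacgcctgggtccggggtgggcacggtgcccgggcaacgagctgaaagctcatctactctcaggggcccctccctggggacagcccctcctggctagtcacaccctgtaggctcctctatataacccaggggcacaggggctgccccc
Acta1: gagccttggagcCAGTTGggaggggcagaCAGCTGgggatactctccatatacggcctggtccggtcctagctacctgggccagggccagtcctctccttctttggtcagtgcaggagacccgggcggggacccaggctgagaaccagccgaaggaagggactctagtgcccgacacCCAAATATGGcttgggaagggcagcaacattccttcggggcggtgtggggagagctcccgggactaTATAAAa
Myh4: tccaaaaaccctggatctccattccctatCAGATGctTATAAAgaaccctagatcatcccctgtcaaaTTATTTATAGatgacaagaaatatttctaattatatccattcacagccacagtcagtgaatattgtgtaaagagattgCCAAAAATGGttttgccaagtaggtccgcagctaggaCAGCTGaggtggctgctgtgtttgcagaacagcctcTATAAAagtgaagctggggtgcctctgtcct
The Ckm window held 1 E box match and no other, Acta1 2 E box, 1 TATAAA and 1 CArG box match, and Myh4 2, 3 and 1 of these and 1 MEF2 match. Of the 36 higher genes 29 had an entry. In windows of this length the MEF2 match was in 7 of the 29 (24.1%) and in 3.01% of 27018 promoters, the CArG box in 4 (13.8%) and 1.4%, the E box in 22 (75.9%) and 66.1%, and TATAAA in 3 (10.3%) and 13%. These matches are a description of letters and not of bound sites.

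The 9 higher genes outside the muscle lists were Nrap, Mylk4, Asb2, Cmya5, Tmem38a, Hspb7, Rpl3l, Cited2 and Rtn2. Nrap, which anchors new myofibrils, stood at 0.67, 0.883, 4.06, 3.56, 7.55 and 15.6 CPM in DN2091, DN2087, WT saline 12, DN2086, DN2075 and DN2094. In the others it stood at 0 to 0.41 CPM, without overlap (log2 fold change 5.78 ± 0.631, SE). Tmem38a, a potassium channel of the muscle calcium store, stood at 6.39, 6.01, 5.66, 8.91, 9.25 and 18.1 CPM, against 3.17 to 5.42 CPM in the others, again without overlap (0.97 ± 0.183; adjusted p = 0.008). Mylk4, a myosin light chain kinase, Asb2, a ubiquitin ligase subunit that acts on filamins, Cmya5, a large protein of the muscle cytoskeleton, Hspb7, a small heat shock protein of heart and muscle, and Rpl3l, the striated muscle form of a ribosomal protein, are also known from muscle, and their adjusted p ran from 0.000174 to 0.0152. As muscle transcripts these, and Nrap and Tmem38a, are not independent of how the libraries were chosen, and their calls are a description. Nrap, Mylk4 and Rpl3l, with 47, 72 and 57 reads over the other 18 libraries, passed the filter on low counts through the muscle libraries. The calls of Asb2, Hspb7 and Rpl3l were lost without WT saline 12 (adjusted p of 0.0662, 0.0819 and 0.0731). Those of Cmya5, Tmem38a, Hspb7 and Rpl3l were lost without Th-Cre DCZ DN2075 (0.0617, 0.0572, 0.141 and 0.12), and that of Rpl3l without Th-Cre saline DN2094 (0.0629). With sex added, Hspb7 and Rpl3l lost their calls (0.0949 and 0.0612), and with limma-voom Hspb7 and Cmya5 (0.41 and 0.0746).

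Cited2, a transcriptional coregulator found in many tissues (chromosome 10, 17723218 to 17725674, with no overlapping gene), was the called gene with the smallest difference. It stood at 11.9 CPM in DN2091, 6.45 in DN2087, 13.7 in WT saline 12, 9 in DN2086, 11 in DN2075 and 10.1 in DN2094, against 5 to 8.83 CPM with a median of 6.97 in the others. In 5 of 6 muscle libraries it lay above all 18 others, DN2087 being the exception, and its order did not follow that of the contractile genes. The fitted difference was 0.6 ± 0.122 on the log2 scale (SE; adjusted p = 0.0199). It was 0.46 without WT saline 12 (adjusted p = 0.403), 0.58 without DN2094 (0.0703) and 0.59 without DN2091 (0.0627). Its call was also lost with the stricter filter (0.0836) and with the marker mean as a continuous term (0.0521). Rtn2, a protein that shapes the endoplasmic reticulum, had 1.74 to 7.11 CPM against 0.879 to 2.46 CPM (1.24 ± 0.272; adjusted p = 0.0451), and lost its call without any of 11 single libraries, with an adjusted p of up to 0.415 without DN2075. It also lost it with sex added (0.151) and with limma-voom (0.34). Over the 6 muscle libraries the CPM of Rtn2 rose in the order of the marker mean that chose them. Its call is therefore given as a description. In Th-Cre libraries alone, the calls of Mylk4, Asb2, Cmya5, Tmem38a, Hspb7, Cited2 and Rtn2 were lost (adjusted p of 0.189 to 0.492). The log2 fold changes there were 3.53, 1.57, 1.54, 1.09, 1.98, 0.46 and 1.45 in that order, with 12 of the 24 libraries in the fit. Nrap and Rpl3l fell below the filter on low counts there and were not tested.

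**Figure D4:**
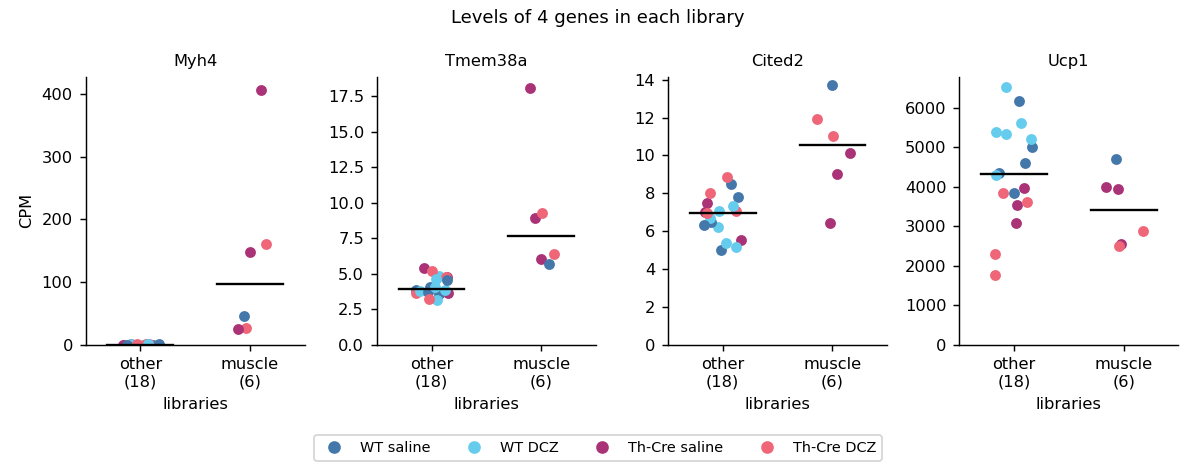
CPM (linear axes that start at 0) of Myh4, Tmem38a, Cited2 and Ucp1 in each library, coloured by group, with the median of each set as a line. The sets do not overlap for Myh4 and Tmem38a, 1 muscle library lies among the others for Cited2, and the sets overlap throughout for Ucp1.

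No gene of the brown fat lists passed the threshold. Ucp1 stood at 2880 CPM in Th-Cre DCZ DN2091, 2550 in Th-Cre saline DN2087, 4690 in WT saline 12, 3980 in Th-Cre saline DN2086, 2490 in Th-Cre DCZ DN2075 and 3940 in Th-Cre saline DN2094. In the others it ran from 1752 to 6533 CPM with a median of 4320, and all 6 muscle libraries lay inside that range. With group in the model its log2 fold change was -0.05 (95% interval -0.34 to 0.25; adjusted p = 1). Of 25 tested genes of brown adipocyte identity and heat production 0 passed and 6 had a positive log2 fold change, with a median of -0.06. Prdm16, the regulator that sets brown over muscle fate, stood at 18.6, 19.6, 23.6, 13.1, 19.2 and 17.9 CPM in DN2091, DN2087, WT saline 12, DN2086, DN2075 and DN2094, and at 14.8 to 45 CPM in the others. Its log2 fold change was the lowest of that list at -0.52 (95% interval -0.94 to -0.1), with an adjusted p of 1, so it is not called. Adrb3, the beta-3 adrenergic receptor of adipocytes, had 172 to 310 CPM against 88.4 to 353 CPM (0.39, 95% interval -0.02 to 0.79; adjusted p = 1). Dio2, the deiodinase that activates thyroid hormone, Elovl3, a fatty acid elongase, and the coactivator gene Ppargc1a had log2 fold changes of -0.06, 0.01 and -0.15, each with an interval that spans 0.

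Forms of mitochondrial genes that belong to striated muscle separated the sets. Ckmt2, the mitochondrial creatine kinase of striated muscle, had 0.0893, 0.552, 1.83, 2.85, 3.2 and 8.97 CPM in DN2091, DN2087, WT saline 12, DN2086, DN2075 and DN2094 and no read in the other 18 libraries. Cox6a2, the striated muscle form of a cytochrome oxidase subunit, had 0.268 to 4.2 CPM against at most 0.0578 CPM. Both fell below the filter on low counts, and both were called higher when no filter was used. As striated muscle transcripts they are not independent of how the libraries were chosen, so their levels are a description. Cox7a1, Cox8b, Fabp3 and Cpt1b, heart and muscle forms that brown fat makes at a high level, had log2 fold changes of 0.04, -0.1, -0.06 and -0.05, and none passed. Mb, myoglobin, stood at 4.15, 3.59, 22.7, 27.4, 14.8 and 73 CPM in the same order of libraries and at 0.552 to 42.4 CPM in the others, so the sets overlapped. Sln, the pump regulator sarcolipin, had 5 reads in the muscle libraries and 3 elsewhere. Over the 11 tested shared genes 0 passed and the median was -0.03.

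The wider adipocyte and mitochondrial programs showed no called difference. Of general adipocyte genes 0 of 18 passed (median -0.08), of fatty acid synthesis 0 of 13 (0.04), of fatty acid oxidation 0 of 16 (-0.03), of nuclear oxidative phosphorylation 0 of 40 (0.03) and of mitochondrially encoded mRNAs 0 of 13 (0.02). Narrow intervals bound several of these: Adipoq, adiponectin, at -0.13 (95% interval -0.31 to 0.04), Plin1, the droplet coat perilipin, at -0.06 (-0.23 to 0.1) and Fabp4, a fatty acid carrier, at 0.04 (-0.13 to 0.21). In the short white adipocyte list 0 of 7 passed and the median was 0.21. Its largest value was that of Lep, leptin, with 9.24, 15.9, 13, 5.35, 12.1 and 11.8 CPM in DN2091, DN2087, WT saline 12, DN2086, DN2075 and DN2094 and 1.83 to 15.1 CPM in the others (0.98, 95% interval 0.24 to 1.72; adjusted p = 1).

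**Figure D5:**
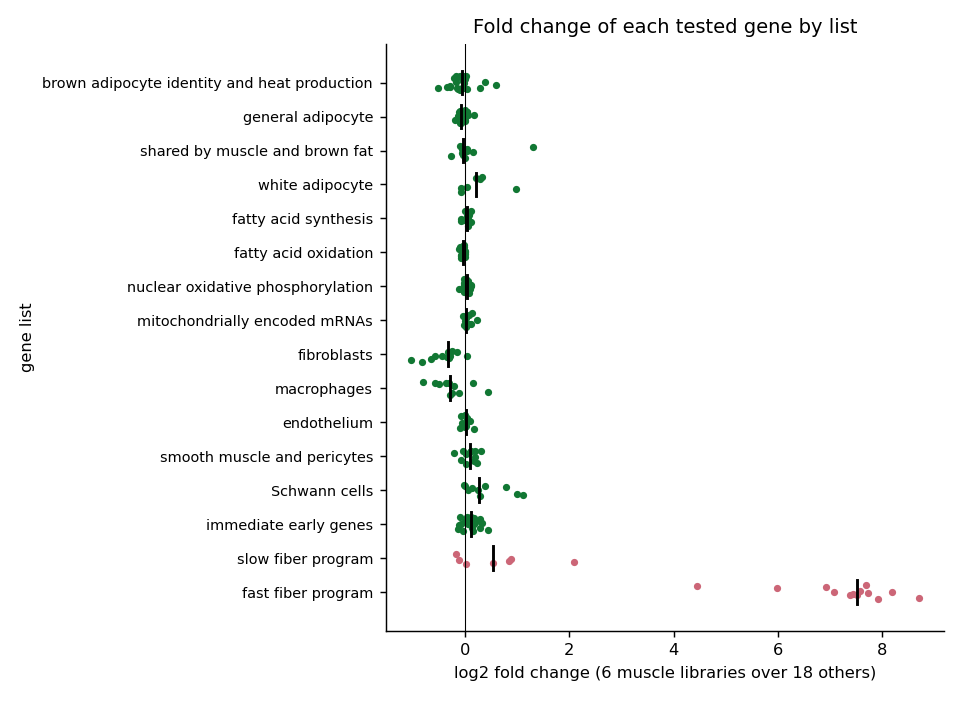
Each point is the log2 fold change of 1 tested gene, muscle libraries over the others, and the black bar the median of its list. The fast fiber program has a median of 7.52, and, apart from the slow fiber program at 0.54, the medians of the other plotted lists lie between -0.34 and 0.27. The filter on low counts removed Myh7, Myl2, Tnni1, Tnnt1 and Myoz2 from the slow program. The fast and slow medians therefore do not compare the programs.

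Markers of other cell types were set beside these results. Of the 12 fibroblast genes tested 0 passed and 11 had a negative log2 fold change, with a median of -0.34 against 0.0003 over all genes. An unadjusted p under 0.05 was found for 6 of the 12, and for 388 of all 13129 tested genes. Col3a1, a fibrillar collagen, stood at 75.1, 136, 89.5, 62.7, 109 and 77.6 CPM in DN2091, DN2087, WT saline 12, DN2086, DN2075 and DN2094 and at 84.5 to 263 CPM in the others (-0.83, 95% interval -1.32 to -0.34; adjusted p = 0.394). Among macrophage genes 0 of 11 passed (median -0.28); Adgre1, the F4/80 antigen gene, had 1.69 to 2.58 CPM against 1.26 to 5.7 CPM (-0.82; adjusted p = 0.252). The lowest p of any gene with a negative value was that of P2ry2, a nucleotide receptor (-0.43 ± 0.11, SE; adjusted p = 0.202). Schwann cell genes (0 of 10, median 0.27), endothelium (0 of 12, 0.02), smooth muscle and pericytes (0 of 12, 0.1) and immediate early genes (0 of 23, 0.12) held no called gene. Tendon and fascia genes were nearly all below the filter, with Tnmd at or below 0.172 CPM in the muscle libraries. In bulk tissue, fewer cells of a type and less RNA per cell cannot be told apart, and the part of other cell types in the muscle result was not tested.

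The muscle libraries fall unevenly on the study's own comparisons, with 3 of them in Th-Cre saline, 2 in Th-Cre DCZ and 1 in WT saline. Between Th-Cre and WT under saline, Myh4 had a log2 fold change of 3.6 ± 1.55 (SE) without a muscle term and 1.87 ± 0.947 with it, and Acta1 2.5 ± 1.38 and 0.51 ± 0.866. Over the 36 genes higher in the muscle libraries, the median was 2.36 without the term, where 1 gene passed, and 0.53 with it, where 0 did. Myh4 and Acta1 are among these 36, which were called by the same muscle term. A smaller difference with the term follows from that choice, so these values are a description. Over all genes 2894 (22%) passed without the term and 2533 (19.3%) with it, 1248 higher (9.51%) and 1285 lower (9.79%) in Th-Cre; 2434 passed in both, 96.1% of the calls with the term and 84.1% of those without. The count was 754 without WT saline 12, 1595 without Th-Cre saline DN2201 and 45 without the 6 muscle libraries, which leaves 3 Th-Cre and 5 WT saline libraries. Between Th-Cre DCZ and Th-Cre saline, the median of the 36 genes was -1.37 without the term and -0.62 with it, and 0 passed in either. For the same reason this is a description. Over all genes 2 (0.0152%) passed without the term and 3 (0.0229%) with it, among them Dusp1, a phosphatase of MAP kinases (1.26 ± 0.189; adjusted p = 0.00839), and Ppp1r15a, which reverses the translation block of the stress response (1.21 ± 0.207; 0.0323). The 2 comparisons share the Th-Cre saline libraries.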

How the data were processed

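Kallisto 0.44.0 and build GRCm38.p6 are named in the submitters' processing notes; poly-A RNA was sequenced with TruSeq chemistry, per the labels' protocols. No source used here gives the transcript set, how transcripts were summed to genes, or whether strand was used. The table holds estimated counts per gene symbol, deposited by the authors as whole numbers, for 36144 genes, with 11.9 to 22.9 M per library. The percent of reads that pseudoaligned is as deposited by the authors. Genes were kept with filterByExpr by group (minimum count 10), which left 13129 genes, edgeR's TMM normalization scaled the libraries, and CPM use the scaled sizes. Log2 CPM used a prior count of 2. Each gene was fitted over 24 libraries with edgeR 4.0.16 (R 4.3.3) by quasi-likelihood, with 4 group means and a 0 or 1 muscle term; adjusted p is Benjamini-Hochberg over all tested genes. The SE is the log2 fold change over the square root of F. The script was tested on simulated data. Of the 36144 symbols 35933 (99.4%) matched GENCODE M21.

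The members, the 31 gene lists (416 genes, 415 in the table) and the tests were chosen with earlier results of these data known. Named genes were the 6 markers; Myh1, Myh2, Myh4 and Myh7; the 10 largest changes each way among called genes with mean log2 CPM of at least 1; the 5 smallest adjusted p; per list up to 4 with the smallest p and 2 with the highest level; and a fixed set of brown fat and muscle genes. Other named genes were chosen after their values were seen. Labels give each library its own mouse; p-values measure the spread between these libraries. Alternatives were other size factors, filters, covariates, DESeq2 1.42.0, limma 3.58.1 (voom) and leaving out libraries. Some single genes are not reported here.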

Additional observations from a re-analysis of the deposited data

Results flagged for a closer look

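For 19 of 167 named genes, 1 of the 6 muscle libraries stood apart from the other 5 (the gap to its nearest neighbour, over the whole range, passed Dixon's critical value). Chance gives about 1 in 20. Of the 19, 15 came from WT saline 12, the only WT library of the 6, and in 3 of those 15 it lay within the range of the other 5 WT saline libraries.

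In WT saline 12 these were low, in CPM: Atp2a2, the calcium pump, 170; Esrrg, a nuclear receptor, 5.72; Pdk4, a kinase that restrains glucose oxidation, 895; Ppara, a regulator of fat oxidation, 26.4. Acacb, an acetyl-CoA carboxylase, was low there at 739 CPM, Fasn, fatty acid synthase, at 6850 CPM, and Hadhb, an enzyme of fat oxidation, at 2354 CPM. Fasn and Hadhb, and Cox7c below, lay within the WT saline range. Higher there than in the other 5 muscle libraries were Chrnb1, an acetylcholine receptor subunit, at 5.84 CPM, Cox7c, a cytochrome oxidase subunit, at 364 CPM, Lmod1, a smooth muscle actin nucleator, at 5.43 CPM, and Stmn2, a neuronal tubulin regulator, at 5.21 CPM. The endothelial genes Emcn (40.9 CPM), Eng (207 CPM), Erg (26.3 CPM) and Cdh5 (272 CPM) were also high there, each above the other 5 WT saline libraries.

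In Th-Cre saline DN2094, the library with most muscle transcripts, Tpm1, a tropomyosin, stood at 96.7 CPM, against 53.5 to 65.2 CPM in the other muscle libraries, and Atp5b, an ATP synthase subunit, at 4812 CPM, against 4358 to 4458 CPM. S100b was low in Th-Cre DCZ DN2075 at 36 CPM, against 57.7 to 65.8 CPM in the other muscle libraries, and within the 31.7 to 71.5 CPM of the other 5 Th-Cre DCZ libraries. Ppargc1a was high in Th-Cre saline DN2086 at 61.4 CPM, against 22 to 32.2 CPM.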

How the results depend on the processing

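The count of 36 higher genes was 36 with RLE size factors and with sizes computed without the muscle lists. It was 97 with no filter on low counts, 7 with at least 1 CPM in at least 12 libraries (which tests 9 of the 36), 5 in Th-Cre libraries alone (17 of the 36 tested) and 0 in Th-Cre saline libraries alone (7 of the 36 tested; edgeR, 747 genes at an unadjusted p under 0.05), where 1 gene, Lyz2, was lower. Leaving out 1 library gave 33 to 49 higher genes and 0 to 1 lower, the latter P2ry2 without Th-Cre DCZ DN2072. The 9 higher genes outside the muscle lists became 41 with no filter and 2 with the stricter filter. They became 16 with the marker mean as a continuous term, 0 in Th-Cre libraries and in Th-Cre saline libraries alone and 14 with DESeq2. Without 1 library they were 5 (without WT saline 12) to 14 (without DN2087). The 41 hold Ckmt2 and Cox6a2, striated muscle forms, so a gene outside the lists can still be a muscle transcript. For Th-Cre against WT under saline, 2533 became 3975 with additive terms and 45 without the muscle libraries, and 754 to 3610 without 1 library (754 without WT saline 12, 1595 without DN2201). For Th-Cre DCZ against saline, 3 became 6 with no filter, 8 with sex added, 0 with additive terms and 21 with DESeq2, and 0 to 12 without 1 library (12 without DN2091; 0 without DN2075, DN2089 or DN2099; 5 without WT saline 8 or DN2087; 1 without WT saline 12, DN2201, DN2097 or DN2086). The cause was not tested. Over 167 named genes, 53 values lost and 35 gained a call under an alternative, none reversed, and 263 of 4514 uncalled values had the other sign. With markers above 3 in place of 1, all 4 muscle libraries were from females (Fisher's exact p = 0.0932, adjusted 0.28). No paired analysis was possible because mouse numbers are not shared between the groups. Genes with few reads limit what can be tested.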
